A study of Mus musculus with 26 samples.

Results

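The Gimap genes encode GTPases of the immunity-associated proteins, and their expression was followed here in thymocytes at 3 stages of CD8 T cell positive selection. All 8 mouse genes of the family named for this account (Gimap1, Gimap3, Gimap4, Gimap5, Gimap6, Gimap7, Gimap8 and Gimap9) were found by their symbols among the 46517 symbols of the deposited table, and all 8 passed the filter on low values, which required at least 10 normalized counts in at least 2 libraries and left 16372 genes to test.

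The 26 libraries came from sorted thymus cells of 3 T cell receptor transgenic (TCRtg) mouse lines. TG6tg H2b/d mice (C57/BL6 x B6.C-H2d/bByJ, in which the Rag genes are intact) carry a receptor of low self-reactivity, F5tg Rag1KO mice (C57/BL6) one of intermediate and OT-1tg Rag2KO mice (C57/BL6) one of high self-reactivity. Thymocytes were sorted as CD4+CD8+CXCR4+CCR7- cells (early positive selection, "early"), CD4+CD8+CXCR4-CCR7+ cells (late positive selection, "late") and CD4-CD8+CXCR4-CCR7+ cells (mature CD8 single-positive, "mature"). Each of the 9 groups had 3 libraries, apart from late TG6 with 2, and all libraries of a line came from 3 mice, so that its stages share mice. The labels number the biological replicates within a line without stating that a number marks the same mouse at each stage. The titles of the late TG6 libraries differ in form from other TG6 titles, and these libraries were matched to their columns by line, stage and number. Where no other setting is named, a call is from 1 fit over all 9 groups that treats the libraries as independent. Values with the replicate number as a block are given where they change a call. For stages and steps the block was fitted within each line. For comparisons between lines it was shared by all lines, so it joined different mice under a number and did not adjust for mouse. The Rag deletion, the H2 haplotype and the receptor differ together between lines and cannot be told apart, and the promoters of the receptor transgenes are not given in the sources used here. The study's methods give an age range for its experiments in general, from young to adult mice, and no age for single libraries. Sums of the deposited values ran from 16134786 to 18944173 per library. Cd3e, a chain of the T cell receptor complex, had at least 4798 normalized counts in every library, and Cd4 had at most 461 in any mature TG6 library and at least 21209 in every early one.

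GIMAP proteins share a GTP-binding domain that is related to that of the septins, and they sit largely on the membranes of organelles in lymphocytes. The family is best known for lymphocyte survival: loss of Gimap5 leaves rats and mice short of peripheral T cells, and Gimap1 is needed for mature T and B cells. Members have been described as partners of Bcl-2 family proteins and, for GIMAP6, of the GABARAP proteins of autophagy.

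The 8 genes lie in 1 cluster of 124 kb on chromosome 6 (48647234 to 48770851, GRCm38, GENCODE vM21), in the order Gimap8, Gimap9, Gimap4, Gimap6, Gimap7, Gimap1, Gimap5 and Gimap3, with 6 genes on the plus strand and Gimap6 and Gimap3 on the minus strand. Promoter sequence from RefSeq (GRCm38.p6) was found for all 8, with a second start for Gimap8. The 250 bases upstream of the start are printed for Gimap4, Gimap3 and Gimap5, whose levels rose from early to late in every line, and for Gimap1, which did not rise at that step in any of them. They read 5′ to 3′ on the strand of the gene, from chr6:48684328-48684577 (plus strand), chr6:48770852-48771101 (minus strand), chr6:48745947-48746196 (plus strand) and chr6:48738797-48739046 (plus strand), and capitals mark matches to a Runx motif (TGNGGT) or an Ets motif (CNGGAAG) on either strand.
Gimap4: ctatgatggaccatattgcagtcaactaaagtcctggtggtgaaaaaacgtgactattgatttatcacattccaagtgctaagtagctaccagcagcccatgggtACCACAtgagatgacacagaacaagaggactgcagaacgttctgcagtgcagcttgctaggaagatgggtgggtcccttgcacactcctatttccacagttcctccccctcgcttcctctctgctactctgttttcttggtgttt
Gimap3: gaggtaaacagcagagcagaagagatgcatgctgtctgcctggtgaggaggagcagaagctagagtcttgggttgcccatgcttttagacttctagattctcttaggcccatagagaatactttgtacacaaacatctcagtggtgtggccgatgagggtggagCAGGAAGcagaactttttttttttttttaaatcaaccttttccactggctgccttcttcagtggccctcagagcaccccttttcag
Gimap5: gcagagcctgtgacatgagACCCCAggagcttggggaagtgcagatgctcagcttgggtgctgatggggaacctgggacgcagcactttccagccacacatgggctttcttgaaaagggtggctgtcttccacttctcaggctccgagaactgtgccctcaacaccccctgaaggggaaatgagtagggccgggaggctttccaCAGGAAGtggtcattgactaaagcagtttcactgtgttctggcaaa
Gimap1: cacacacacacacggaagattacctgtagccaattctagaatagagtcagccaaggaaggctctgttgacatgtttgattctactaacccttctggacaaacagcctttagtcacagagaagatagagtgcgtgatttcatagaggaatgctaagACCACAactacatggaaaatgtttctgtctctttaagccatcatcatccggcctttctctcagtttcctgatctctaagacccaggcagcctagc
A Runx match was present upstream of Gimap1, Gimap4, Gimap5, Gimap7, Gimap9 and the second start of Gimap8, and 40.1% of 32851 promoters of that length hold one. An Ets match was present upstream of Gimap3, Gimap5 and Gimap9, against 26.6% of promoters. Gimap3 also had a match to a Foxo motif (TGTTTAC; 3.17% of promoters) and to a Klf motif (CCACNCC; 29.2%), which the second start of Gimap8 shared (29.2%), there overlapping its Runx match. An E-box (CANCTG; 44.8% of promoters) was matched upstream of Gimap5, Gimap7, Gimap9 and the first start of Gimap8, and 1 of the 2 matches of Gimap9 overlapped its Runx match. No window of a member matched Tcf (CTTTGA; 13.8% of promoters), Rbpj and Ikaros (TGGGAA; 21.6%), the motif of Gata factors (AGATAA; 9.99%) or NF-kB (1.21%), and the window of Gimap6 matched none of the 9 motifs. A match is a description of these letters and not a bound site.

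Members were compared with each other per kilobase (kb) of exon, since they differ in length. Gimap6 had the highest level per kb in 8 of the 9 groups, with 2572 ± 74.5 normalized counts per kb (SD, n = 3) in early TG6 and 5479 ± 1350 (SD, n = 3) in late F5. Mature OT-1 was the exception, where Gimap4 had 2574 ± 175 (SD, n = 3) and Gimap6 2255 ± 264 (SD, n = 3). Gimap7 was lowest in 7 groups, for example with 87.3 ± 19.9 (SD, n = 3) in mature OT-1. In early TG6, Gimap4 and Gimap7 lay side by side at 58.9 ± 7.49 and 59.4 ± 5.69 (SD, n = 3 each), and in late F5 Gimap5 and Gimap7 had 192 ± 32.7 and 211 ± 73.5 (SD, n = 3 each), each difference within the spread of the libraries.

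The makeup of the family differed between stages. In early TG6, Gimap6, Gimap8 and Gimap9 held 47.4%, 19.2% and 18.9% of the family's signal per kb, while Gimap3 and Gimap4 held 1.77% and 1.09%. In mature TG6, Gimap3 held 22.3% and Gimap4 21.9%, close to the 24.8% of Gimap6. Early OT-1 differed from the other early groups in Gimap4, which held 16.6% there against 1.09% in TG6 and 1.70% in F5. These shares are means of the shares in single libraries and were not tested.

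**Figure D1:**
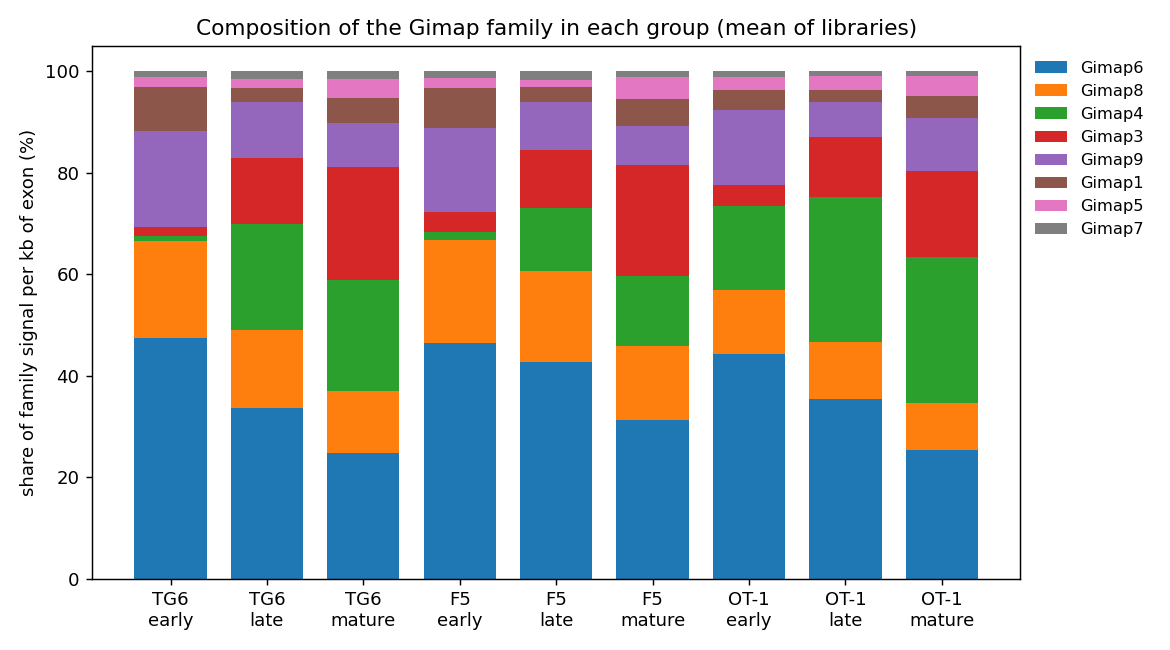
Stacked bars show the share of the family's signal per kb of exon (percent, mean of the libraries) held by each Gimap gene in the 9 groups of line and stage. Gimap6 takes the largest band in every group but mature OT-1, and the Gimap4 band of early OT-1 (16.6%) stands against 1.09% and 1.70% in early TG6 and F5.

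The summed values of the family took their largest share of the libraries at the late stage in all 3 lines. This sum is not per length, and Gimap6 was its largest part in every library. Not every member followed it: mature means were above late means for Gimap1 in each line and for Gimap3 and Gimap5 in TG6 and F5. The 8 members together made up 0.102 to 0.104% of the total in early TG6, 0.240 to 0.252% in late TG6 and 0.121 to 0.176% in mature TG6. In F5 the shares were 0.108 to 0.117%, 0.223 to 0.236% and 0.152 to 0.167% at the same stages, and in OT-1 they were 0.124 to 0.142%, 0.224 to 0.236% and 0.126 to 0.133%. Early and late ranges did not overlap in any line, and neither did late and mature ranges. Genes of cell division, a list of 10 genes added with values known (among them Mki67 and Top2a), were lowest at the late stage. Their summed values were 40649 to 84645 in the early libraries, 442 to 7497 in the late and 15582 to 75709 in the mature ones. All 10 were called lower from early to late and higher from late to mature in each line. Of all genes tested in TG6, F5 and OT-1, 13.3%, 14% and 14% were lower at the first step and 14.5%, 12.2% and 14% higher at the second. Whether that difference in cycling bears on the Gimap values was not tested. In bulk libraries such as these, fewer cells of a type and less RNA per cell cannot be told apart.

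From early to late positive selection, 7 of the 8 members rose in TG6, 6 in F5 and 4 in OT-1, and none fell. Over all genes tested, 25.4% were called in TG6 (12.1% higher), 26.7% in F5 (12.7% higher) and 26.7% in OT-1 (12.7% higher). The median log2 difference of the members was 1.13 in TG6, 0.95 in F5 and 0.69 in OT-1, beside medians over all genes of 0.00, 0.04 and 0.02. Gimap3, Gimap4, Gimap5 and Gimap8 rose in every line. Gimap1 was called in none of the 24 comparisons made here, although it passed the threshold in some of them under other settings.

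**Figure D2:**
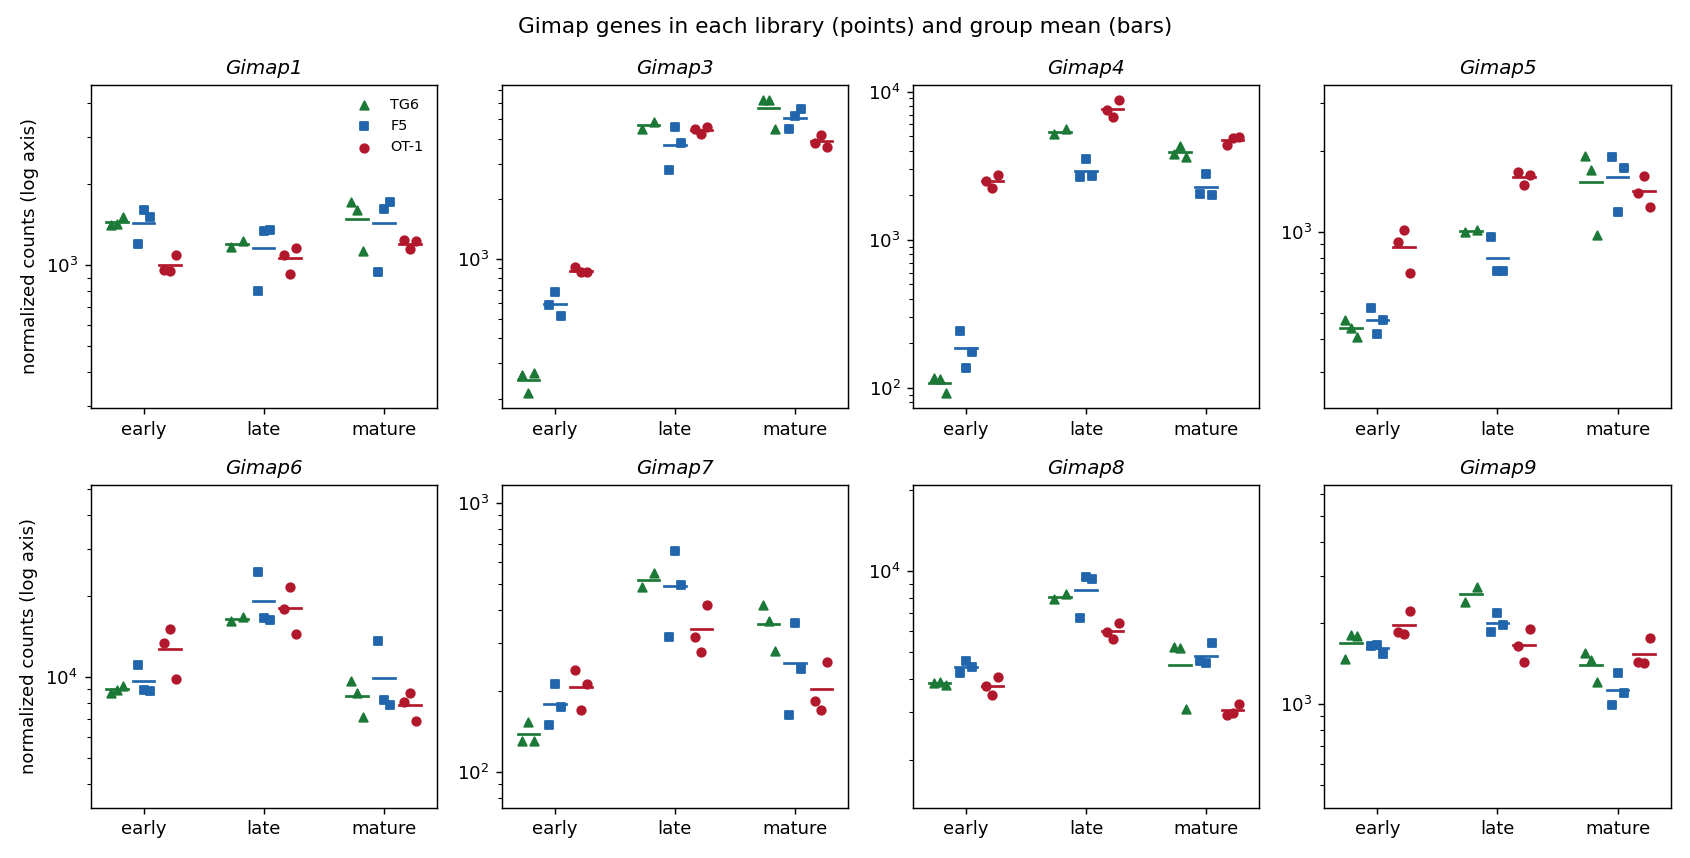
Each panel is 1 Gimap gene, with the normalized counts of every library (points, log axis) by stage, triangles for TG6, squares for F5 and circles for OT-1, and horizontal bars for the group means. Gimap4 spans 92.4 to 8827 normalized counts, and its 3 early OT-1 libraries (2236 to 2717) lie apart from the early TG6 and F5 libraries (92.4 to 243).

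Gimap4, a member described in T cell death and cytokine secretion, had the widest range of the family. Gimap4 values in TG6 were 116, 116 and 92.4 normalized counts in the early libraries, 5137 and 5618 in the late ones and 3770.2, 4296 and 3634 in the mature ones. Gimap4 values in F5 were 243, 138 and 176, then 2647, 3483 and 2675, then 2027, 2763 and 1999. In OT-1 the gene had 2503, 2236 and 2717 early, 7464, 6705 and 8827 late, and 4360.1, 4869 and 4957 mature. Early OT-1 thymocytes thus had levels of Gimap4 that overlapped those of mature F5 thymocytes, while early TG6 and F5 libraries were below every other group. The rise from early to late was 5.63 ± 0.19 on the log2 scale (SE) in TG6, a fold of 49.5 (limma, adjusted p = 1.47e-14). It was 4.0 ± 0.17 in F5, a fold of 16 (limma, adjusted p = 1.68e-12). It was 1.62 ± 0.17 in OT-1, a fold of 3.07 (limma, adjusted p = 7.3e-07). In order of group mean, the groups ran late OT-1, late TG6, mature OT-1, mature TG6, late F5, early OT-1, mature F5, early F5 and early TG6. Late F5, early OT-1 and mature F5 overlapped with their neighbours in that order, and no other pair of neighbours did.

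Gimap3, which together with Gimap5 has been described as a partner of Bcl-2 family proteins, rose in every line as well. Gimap3 values in TG6 were 263, 213 and 267 normalized counts early, 4472 and 4829.9 late, and 6262, 6230.0 and 4474 mature. Gimap3 values in F5 were 587, 683 and 515, then 2777, 4559 and 3809, then 4458, 5188 and 5606. In OT-1 there were 907, 859 and 855 early, 4443, 4195 and 4579.5 late, and 3792, 4189 and 3630.5 mature. The early groups were ordered TG6, F5 and OT-1 with no overlap between them, and all late and mature libraries of the 3 lines lay between 2777 and 6262. Mature TG6 and mature F5, the highest 2 groups by mean, overlapped with each other, and each overlapped with late TG6. The rise from early to late was 4.23 ± 0.17 (log2, SE) in TG6, 2.62 ± 0.15 in F5 and 2.33 ± 0.15 in OT-1, which are folds of 18.8, 6.15 and 5.04.

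Gimap5, the member required for T cell survival, rose by less. In TG6 it had 471, 440.5 and 406 normalized counts early, 999 and 1019 late, and 1916, 1691 and 970.2 mature. Gimap5 values in F5 were 521, 415 and 471, then 952, 716 and 717, then 1895, 1188 and 1719.6. OT-1 libraries had 916, 1011 and 702 early, 1666, 1491 and 1620.5 late, and 1393, 1616 and 1235 mature. Early and late libraries did not overlap within any line, and early OT-1 libraries were above all early libraries of the other lines. The rise from early to late was 1.2 ± 0.23 (log2, SE) in TG6, 0.75 ± 0.20 in F5 and 0.88 ± 0.20 in OT-1. Gimap3 and Gimap5 are close copies, and of all stretches of 50 bases in their GENCODE transcripts 7.52% of those of Gimap3 and 4.53% of those of Gimap5 occur in the other gene, so that their reads had to be divided in quantification. No other pair of members shared such a stretch. With the values of Gimap3 and Gimap5 summed and tested as 1 gene, the sum was called wherever Gimap3 or Gimap5 was called. Among these were 5 comparisons in which only 1 of the pair was called by itself.

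Gimap6 binds GABARAP proteins, Gimap8 carries several GTPase domains in 1 protein, and Gimap7 is a GTPase activated by dimerization. Like Gimap4, these genes had their highest group mean at the late stage in each line, whereas Gimap3 and Gimap5 had theirs at the mature stage in TG6 and F5. Gimap6 values in TG6 were 8757, 8948 and 9272 normalized counts early, 16195 and 16721 late, and 9624, 8758 and 7091 mature. In F5 they were 11039.9, 8968 and 8878, then 24603, 16538 and 16319, then 13609, 8235 and 7843, and in OT-1 13356, 15055 and 9808, then 17932, 21619.9 and 14504, then 8044, 8717 and 6889. Late libraries were above all early and mature libraries in TG6 and F5, while in OT-1 the lowest late library was below the highest early one. From early to late Gimap6 rose by 0.87 ± 0.22 (log2, SE) in TG6 and 0.97 ± 0.20 in F5. The OT-1 difference of 0.50 ± 0.20 was not called (limma, adjusted p = 0.0687), but was with the replicate block (limma, adjusted p = 0.000723).

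Gimap8 values in TG6 were 3861, 3898 and 3781 early, 7890.0 and 8215 late, and 5244, 5174 and 3077 mature. Gimap8 in F5 had 4206, 4656 and 4406, then 6701, 9509 and 9381, then 4632, 4561 and 5412, and in OT-1 3743, 3485 and 4062, then 5945, 5624 and 6432, then 2927, 2978 and 3224. Late libraries of this gene were above all others of their line. Its rise from early to late was 1.07 ± 0.17 (log2, SE) in TG6, 0.93 ± 0.15 in F5 and 0.67 ± 0.15 in OT-1. Gimap7 was low throughout, with 130.2 to 659.5 normalized counts over all libraries, and rose by 1.90 ± 0.30 (log2, SE) in TG6 and 1.41 ± 0.27 in F5. In OT-1, Gimap7 differed by 0.70 ± 0.27 between early (169 to 239) and late (279 to 418) libraries, which did not overlap, and was not called (limma, adjusted p = 0.0553), but was with the replicate block (limma, adjusted p = 0.00142).

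Gimap9 stood between 989 and 2716 normalized counts. Gimap9 values in TG6 were 1472, 1797 and 1785 early, 2393 and 2716 late, and 1542, 1455 and 1205 mature. Gimap9 in F5 had 1643, 1652 and 1527, then 1843, 2169.9 and 1969, then 989, 1304 and 1096, and in OT-1 1851, 1815 and 2217, then 1636, 1425 and 1899, then 1434, 1425 and 1750.5. Late libraries were highest in TG6 and F5, whereas late OT-1 libraries overlapped with both other stages and early and mature OT-1 libraries did not overlap. The gene rose from early to late by 0.60 ± 0.15 (log2, SE) in TG6. The differences of 0.31 ± 0.13 in F5 (limma, adjusted p = 0.0862) and -0.25 ± 0.13 in OT-1 (limma, adjusted p = 0.169) were not called, though the F5 difference was with only the groups compared (limma, adjusted p = 0.0455).

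Gimap1, required for mature lymphocytes, had 803 to 1721 normalized counts over all 26 libraries, the smallest ratio of highest to lowest value in the family. Its differences from early to late were -0.28 ± 0.23 in TG6, -0.33 ± 0.20 in F5 and 0.08 ± 0.20 in OT-1 (log2, SE), and none was called in the fit over all groups. With only the groups compared, the TG6 difference was called (limma, adjusted p = 0.0274), as was that between early OT-1 and F5 (-0.51; limma, adjusted p = 0.0451), and without F5 mature replicate 1 Gimap1 was called higher from late to mature in F5 (0.56; limma, adjusted p = 0.0413). Early OT-1 libraries (952 to 1097) were below all early TG6 libraries (1418 to 1516), with a difference of -0.54 ± 0.20 at the edge of the threshold (limma, adjusted p = 0.0547). That difference was called with the replicate block (limma, adjusted p = 0.047), with total scaling (-0.64; limma, adjusted p = 0.034), with quantile scaling (limma, adjusted p = 0.0494), with genes of a mean of at least 50 (limma, adjusted p = 0.0463) and with only the groups compared (limma, adjusted p = 0.00327), and not without any 1 of its 6 libraries (limma, adjusted p = 0.0642 to 0.142). Gimap1 shares 1107 of its 3073 exon bases with the antisense gene Gimap1os, and the strand setting of the libraries is not given in the sources used here, so reads of the pair cannot be told apart in the shared part. Gimap1os (237 to 847 normalized counts) was called higher from early to late in TG6 (0.79 ± 0.21) and F5 (0.65 ± 0.19). A read-through gene, Gm28053, with a mean of 123 normalized counts, shares 198 exon bases with Gimap1, 153 with Gimap5 and 81 with Gimap7.

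The F5 libraries with the same replicate number deviated together at all stages, and with that number as a block Gimap1 and Gimap9 also passed the threshold from early to late in F5, Gimap1 lower (-0.33; limma, adjusted p = 0.0359) and Gimap9 higher (0.31; limma, adjusted p = 0.0195). Without the second late TG6 library, the TG6 rises of Gimap6 (0.85; limma, adjusted p = 0.0519) and Gimap9 (0.51; limma, adjusted p = 0.0689) were not called.

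The size of the step from early to late differed between lines for 3 members. Fewer genes were called for such a difference than within lines: 2.04% of all genes tested between OT-1 and TG6 (1.09% lower), 1.68% between OT-1 and F5 (0.611% lower), and 2.08% between F5 and TG6 (1.4% lower). Of the members, 3 were called between OT-1 and TG6, 1 between OT-1 and F5 and 2 between F5 and TG6. The step of Gimap4 was smaller in OT-1 than in TG6 (difference -4.01 ± 0.25, log2, SE; limma, adjusted p = 5.7e-09), smaller in OT-1 than in F5 (-2.38 ± 0.24; limma, adjusted p = 1.09e-05), and smaller in F5 than in TG6 (-1.63 ± 0.25; limma, adjusted p = 0.000729). The step of Gimap3 was smaller in OT-1 than in TG6 (-1.90 ± 0.23; limma, adjusted p = 6.42e-05) and smaller in F5 than in TG6 (-1.61 ± 0.23; limma, adjusted p = 0.000392), and the difference between OT-1 and F5 was -0.29 ± 0.22 (limma, adjusted p = 0.711). Gimap9 differed between OT-1 and TG6 by -0.85 ± 0.20 (limma, adjusted p = 0.0233). The call of Gimap9 was lost without any of 6 libraries left out singly (OT-1 late replicate 1, OT-1 late replicate 2, OT-1 early replicate 3, either late TG6 library and TG6 early replicate 1), at adjusted p = 0.0546 to 0.157 (limma). With the replicate block, Gimap7 (-1.10; limma, adjusted p = 0.0113) was also called between OT-1 and TG6 and Gimap9 (-0.56; limma, adjusted p = 0.0268) between OT-1 and F5. The early and late libraries of a line enter each of these tests and those above, so they are not separate evidence.

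**Figure D3:**
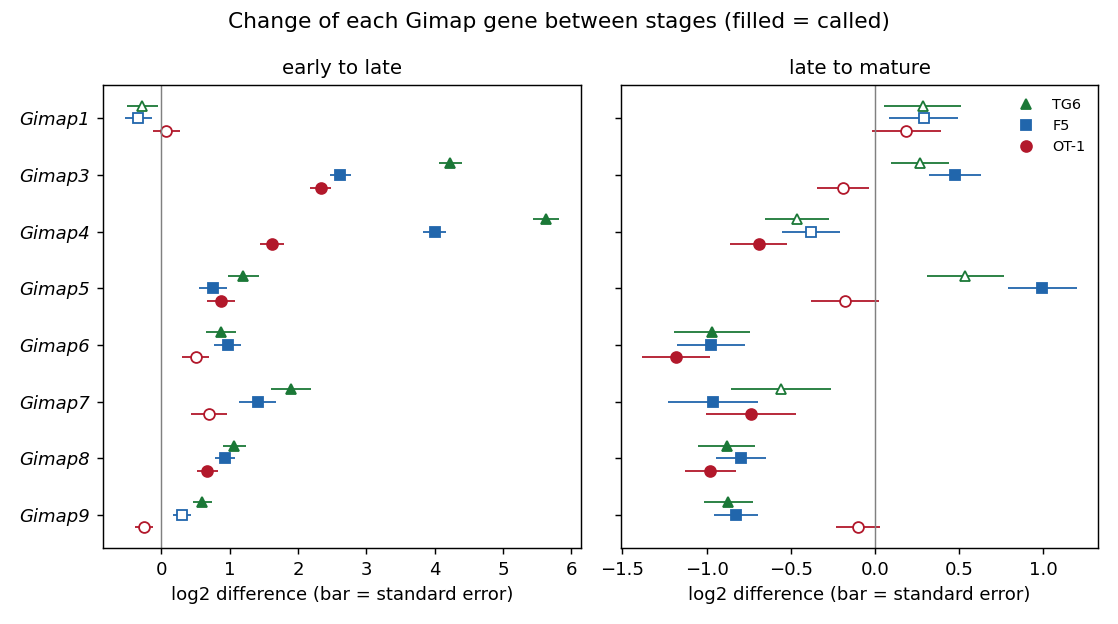
Log2 differences of each Gimap gene from early to late (left) and late to mature (right) in TG6 (triangles), F5 (squares) and OT-1 (circles), with standard errors as bars and filled symbols for genes called at an adjusted p under 0.05. Gimap4 has the largest spread between lines on the left (5.63, 4.0 and 1.62), against -0.47, -0.38 and -0.69 for the same gene on the right.

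From late positive selection to the mature stage, members were called in both directions in F5 and only lower in TG6 and OT-1. In TG6, 3 of 8 members fell and none rose, where 22.3% of all genes tested were called (7.79% lower). In F5, 4 fell and 2 rose, where 20.5% were called (8.31% lower and 12.2% higher). In OT-1, 4 fell and none rose, where 24.4% were called (10.4% lower). Gimap6 and Gimap8 fell in every line, although with only the groups compared the calls of Gimap8 in TG6 (limma, adjusted p = 0.133) and Gimap6 in F5 (limma, adjusted p = 0.0828) were lost. Gimap6 fell by 0.97 ± 0.22 in TG6, by 0.97 ± 0.20 in F5 and by 1.18 ± 0.20 in OT-1 (log2, SE). Gimap8 fell by 0.88 ± 0.17, by 0.80 ± 0.15 and by 0.98 ± 0.15 in the same lines. Gimap9 fell in TG6 (-0.87 ± 0.15) and F5 (-0.83 ± 0.13), with -0.10 ± 0.13 in OT-1 (limma, adjusted p = 0.608).

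Gimap4 fell by 0.69 ± 0.17 (log2, SE) from late to mature in OT-1, and its differences of -0.47 ± 0.19 in TG6 and -0.38 ± 0.17 in F5 were not called (limma, adjusted p = 0.0851 and 0.125). Gimap5 rose in F5, by 0.99 ± 0.20 (limma, adjusted p = 0.00117). Gimap7 fell in F5 (-0.96 ± 0.27; limma, adjusted p = 0.0123) and OT-1 (-0.74 ± 0.27; limma, adjusted p = 0.0478). The OT-1 call of Gimap7 was lost without any 1 of the 6 OT-1 libraries compared, apart from mature replicate 3, at adjusted p = 0.0504 to 0.174 (limma). The F5 call of Gimap7 was lost without mature replicate 1 (limma, adjusted p = 0.0832) or late replicate 2 (limma, adjusted p = 0.0864). Gimap3 rose in F5 by 0.48 ± 0.15 (limma, adjusted p = 0.0312), and lost that call without mature replicate 2 or 3 or late replicate 1 or 3 (limma, adjusted p = 0.0567 to 0.195). In the fit over all groups, none of the members was called for a difference of this step between lines, where 1.17% of all genes were called between OT-1 and TG6, 0.843% between OT-1 and F5 and 0.116% between F5 and TG6 (limma, lowest adjusted p of a member 0.0591, 0.0562 and 1.00). With the replicate block, the step of Gimap5 was lower in OT-1 than in F5 (-1.17; limma, adjusted p = 0.00451) and than in TG6 (-0.89; limma, adjusted p = 0.0345), and that of Gimap9 was higher in OT-1 than in F5 (0.72; limma, adjusted p = 0.00779) and than in TG6 (0.74; limma, adjusted p = 0.0117). Some of these were also called without the block, with genes of a mean of at least 50 (Gimap5 and Gimap9 for OT-1 minus F5 and Gimap9 for OT-1 minus TG6; limma, adjusted p = 0.0438, 0.0492 and 0.0433), with total scaling (Gimap5 for OT-1 minus F5; limma, adjusted p = 0.0355) and without single libraries (limma, adjusted p = 0.0204 to 0.0425 for F5 mature replicate 2, F5 late replicate 1, OT-1 late replicate 3 and TG6 mature replicate 3). The block also called the rise of Gimap5 from late to mature in TG6 (0.71; limma, adjusted p = 0.0051).

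Across the whole path from early to mature, Gimap3, Gimap4 and Gimap5 ended higher in every line. Of all genes tested 34.6% were called in TG6 over this span (19.4% higher), 19.6% in F5 (10.8% higher and 8.79% lower) and 23.2% in OT-1 (12.8% higher and 10.5% lower). Of the members, 4 were higher in TG6, 3 higher and 1 lower in F5, and 3 higher and 1 lower in OT-1. Gimap3 ended 4.50 ± 0.15 higher in TG6, 3.10 ± 0.15 in F5 and 2.14 ± 0.15 in OT-1 (log2, SE). For Gimap4 the differences were 5.16 ± 0.17, 3.62 ± 0.17 and 0.93 ± 0.17, and for Gimap5 1.74 ± 0.20, 1.75 ± 0.20 and 0.70 ± 0.20. Gimap7 ended higher in TG6 (1.34 ± 0.27). Gimap9 ended lower in F5 (-0.52 ± 0.13) and Gimap6 lower in OT-1 (-0.68 ± 0.20). The Gimap5 call in OT-1 was lost without mature replicate 2 or early replicate 3 (limma, adjusted p = 0.0780 and 0.0944), and the Gimap6 call without mature replicate 3, early replicate 1 or early replicate 2 (limma, adjusted p = 0.0607 to 0.0937). In F5, Gimap7 differed by 0.45 ± 0.27 (limma, adjusted p = 0.277), and passed the threshold with the replicate number as a block (limma, adjusted p = 0.0311), as did Gimap9, lower, in TG6 (-0.27; limma, adjusted p = 0.0336) and OT-1 (-0.35; limma, adjusted p = 0.01).

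Between OT-1 and either other line, Gimap3 and Gimap4 had their largest differences at early positive selection. Between F5 and TG6 this held for Gimap3 and not for Gimap4. OT-1 exceeded TG6 in 3 of the 8 members (27.8% of all genes called, 15.4% higher and 12.4% lower), OT-1 exceeded F5 in 3 (12.7% called, 7.81% higher and 4.88% lower) and F5 exceeded TG6 in 2 (6.46% called, 3.12% higher and 3.35% lower). None was called lower. Gimap4 was 4.51 ± 0.17 higher (log2, SE) in OT-1 than in TG6, a fold of 22.8 (limma, adjusted p = 2.37e-14). Against F5 it was 3.77 ± 0.17 higher in OT-1, a fold of 13.6 (limma, adjusted p = 7.14e-13). Between F5 and TG6, Gimap4 differed by 0.74 ± 0.17 (limma, adjusted p = 0.00858), a call that was lost without F5 early replicate 1 (0.53; limma, adjusted p = 0.0760) or TG6 early replicate 3 (0.63; limma, adjusted p = 0.0638).

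At the early stage Gimap3 was ordered TG6, F5 and OT-1, being 1.26 ± 0.15 higher in F5 than in TG6 (log2, SE), 0.56 ± 0.15 higher in OT-1 than in F5 and 1.82 ± 0.15 higher in OT-1 than in TG6. The Gimap3 difference between OT-1 and F5 lost its call without F5 early replicate 3 or OT-1 early replicate 1 (limma, adjusted p = 0.105 and 0.0641). Gimap5 was 0.98 ± 0.20 higher in OT-1 than in TG6 and 0.89 ± 0.20 higher than in F5, with 0.09 ± 0.20 between F5 and TG6. The other members differed by at most 0.57 (log2) in size between OT-1 and TG6, and none was called in the fit over all groups. The replicate block, which between lines joins mice of different lines under a number, called Gimap1 lower and Gimap6 higher (0.48; limma, adjusted p = 0.0271) in OT-1. Gimap6 was also called without OT-1 early replicate 3 (0.66; limma, adjusted p = 0.0286). Gimap1, Gimap6 and Gimap7 were called with only the groups compared (limma, adjusted p = 0.00327, 0.0475 and 0.0445). With only the groups compared, the Gimap4 difference between F5 and TG6 was not called (limma, adjusted p = 0.104). These comparisons share libraries, each early group entering 2 of them.

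**Figure D4:**
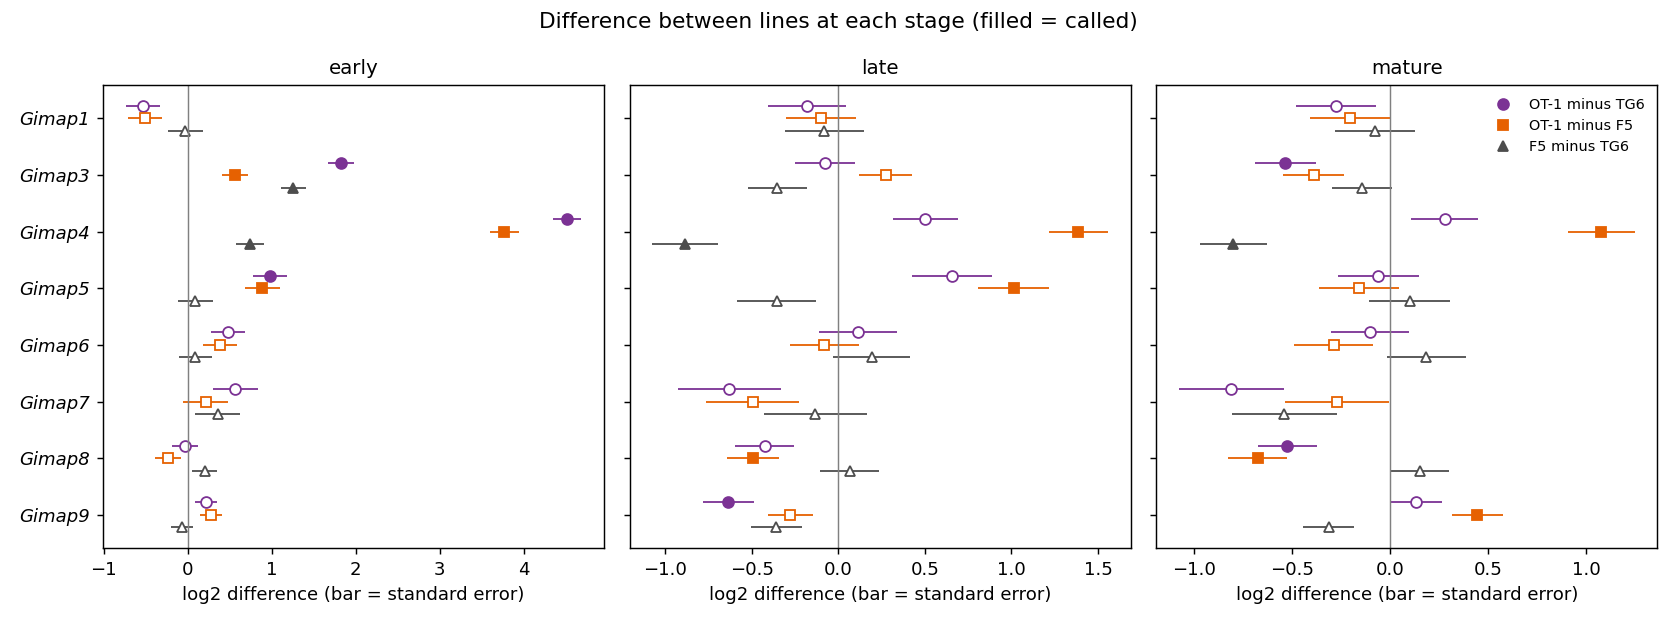
Log2 differences between lines for each Gimap gene at the early, late and mature stages (circles OT-1 minus TG6, squares OT-1 minus F5, triangles F5 minus TG6), with standard errors as bars, filled symbols for called genes and a separate scale in each panel. Gimap4 stands at 4.51 and 3.77 in the early panel, and the late and mature panels reach 1.39.

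At late positive selection, Gimap4 and Gimap5 separated OT-1 from F5. In the fit over all groups, Gimap9 was the one member called between OT-1 and TG6 (15.5% of all genes called, 9.34% higher and 6.21% lower), being lower in OT-1 (-0.63 ± 0.15, log2, SE; limma, adjusted p = 0.00441), and it lost the call without TG6 late replicate 2 (limma, adjusted p = 0.0900). Gimap5 was also called higher in OT-1 with the block (0.73; limma, adjusted p = 0.0195), with genes of a mean of at least 50 (limma, adjusted p = 0.0467) and with only the groups compared (limma, adjusted p = 0.00683). Gimap8 was called lower with total scaling, quantile scaling or only the groups compared (limma, adjusted p = 0.0444, 0.0403 and 0.0215). Between OT-1 and F5 (24% called, 13.6% higher and 10.4% lower), Gimap4 was 1.39 ± 0.17 higher in OT-1, Gimap5 1.01 ± 0.20 higher and Gimap8 lower (-0.49 ± 0.15). The Gimap8 call (limma, adjusted p = 0.0212) was lost without F5 late replicate 2 or 3 or OT-1 late replicate 1 or 2 (limma, adjusted p = 0.0597 to 0.102). Between F5 and TG6 (4.97% called, 3.23% lower), Gimap4 was lower in F5 (-0.88 ± 0.19; limma, adjusted p = 0.00557), a call lost without TG6 late replicate 2 (-0.82; limma, adjusted p = 0.102) or with only the groups compared (limma, adjusted p = 0.0728). Gimap4 thus stood lowest in F5 at this stage, where its 3 libraries (2647 to 3483) were below all late TG6 (5137 and 5618) and late OT-1 libraries (6705 to 8827).

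In mature CD8SP thymocytes, Gimap4 was again lowest in F5. OT-1 exceeded F5 by 1.08 ± 0.17 (log2, SE; limma, adjusted p = 0.000107), and F5 minus TG6 was -0.80 ± 0.17 (limma, adjusted p = 0.00384). Its mature F5 libraries (1999 to 2763) were below all those of TG6 (3634 to 4296) and OT-1 (4360.1 to 4957). Between OT-1 and F5 (23.3% of all genes called, 13.3% higher and 10.1% lower), Gimap8 was also lower in OT-1 (-0.67 ± 0.15) and Gimap9 higher (0.45 ± 0.13). Between F5 and TG6 (6.64% of all genes called, 4.5% lower), Gimap4 was the one member called, and its call was lost with only the groups compared (limma, adjusted p = 0.0695). Between OT-1 and TG6 (9.74% called, 4.67% higher and 5.08% lower), Gimap3 (-0.53 ± 0.15) and Gimap8 (-0.52 ± 0.15) were lower in OT-1 (limma, adjusted p = 0.0316 and 0.0318). Without OT-1 replicate 1 or 2 or TG6 replicate 1 or 2, neither was called, and without OT-1 replicate 3 Gimap3 was not called (limma, adjusted p = 0.0505 to 0.200 for the calls lost). The Gimap9 call was lost without F5 replicate 1 or 3 or OT-1 replicate 3 (limma, adjusted p = 0.0603 to 0.0906).

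One mature TG6 library stood apart. TG6 mature replicate 3 had the lowest value of its group for all 8 members, at 53.8 to 90.1% of the mean of the other two libraries, and 43.9% of all genes tested were lowest there too. Its summed cell division genes were 62301, against 15582 and 17083 in the other two mature TG6 libraries, and its summed dendritic cell markers (5 genes) were 225, where the lowest library of the group had 112. The part of either in the Gimap values was not tested. Without this library, Gimap5 rose from late to mature in TG6 (0.83; limma, adjusted p = 0.0048), Gimap8 ended higher in mature than in early TG6 (0.44; limma, adjusted p = 0.00506) and Gimap7 was lower in mature OT-1 than in mature TG6 (-0.96; limma, adjusted p = 0.0185). Gimap7 was also called there without OT-1 mature replicate 3 (-0.99; limma, adjusted p = 0.0436), with total scaling (limma, adjusted p = 0.0474) and with genes of a mean of at least 50 (limma, adjusted p = 0.0498).

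F5 and OT-1 libraries with the same replicate number resembled each other across stages for several members. In F5, replicate 1 had the highest Gimap6 value of each stage, at 1.24, 1.5 and 1.69 times the mean of the other two libraries in the early, late and mature groups. The same libraries were lowest in Gimap1, at 0.770, 0.597 and 0.567 times, and in Gimap7, at 0.772, 0.551 and 0.546 times. In OT-1, replicate 2 had the highest and replicate 3 the lowest Gimap6 value at each stage. In F5, 28.8% of all genes tested had their highest value in the same replicate number at every stage and 28.0% their lowest, and 25.3% and 24.8% did so in OT-1. Of the 8 members, 4 had the same highest and 4 the same lowest replicate in F5, and the counts were also 4 and 4 in OT-1.

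**Figure D5:**
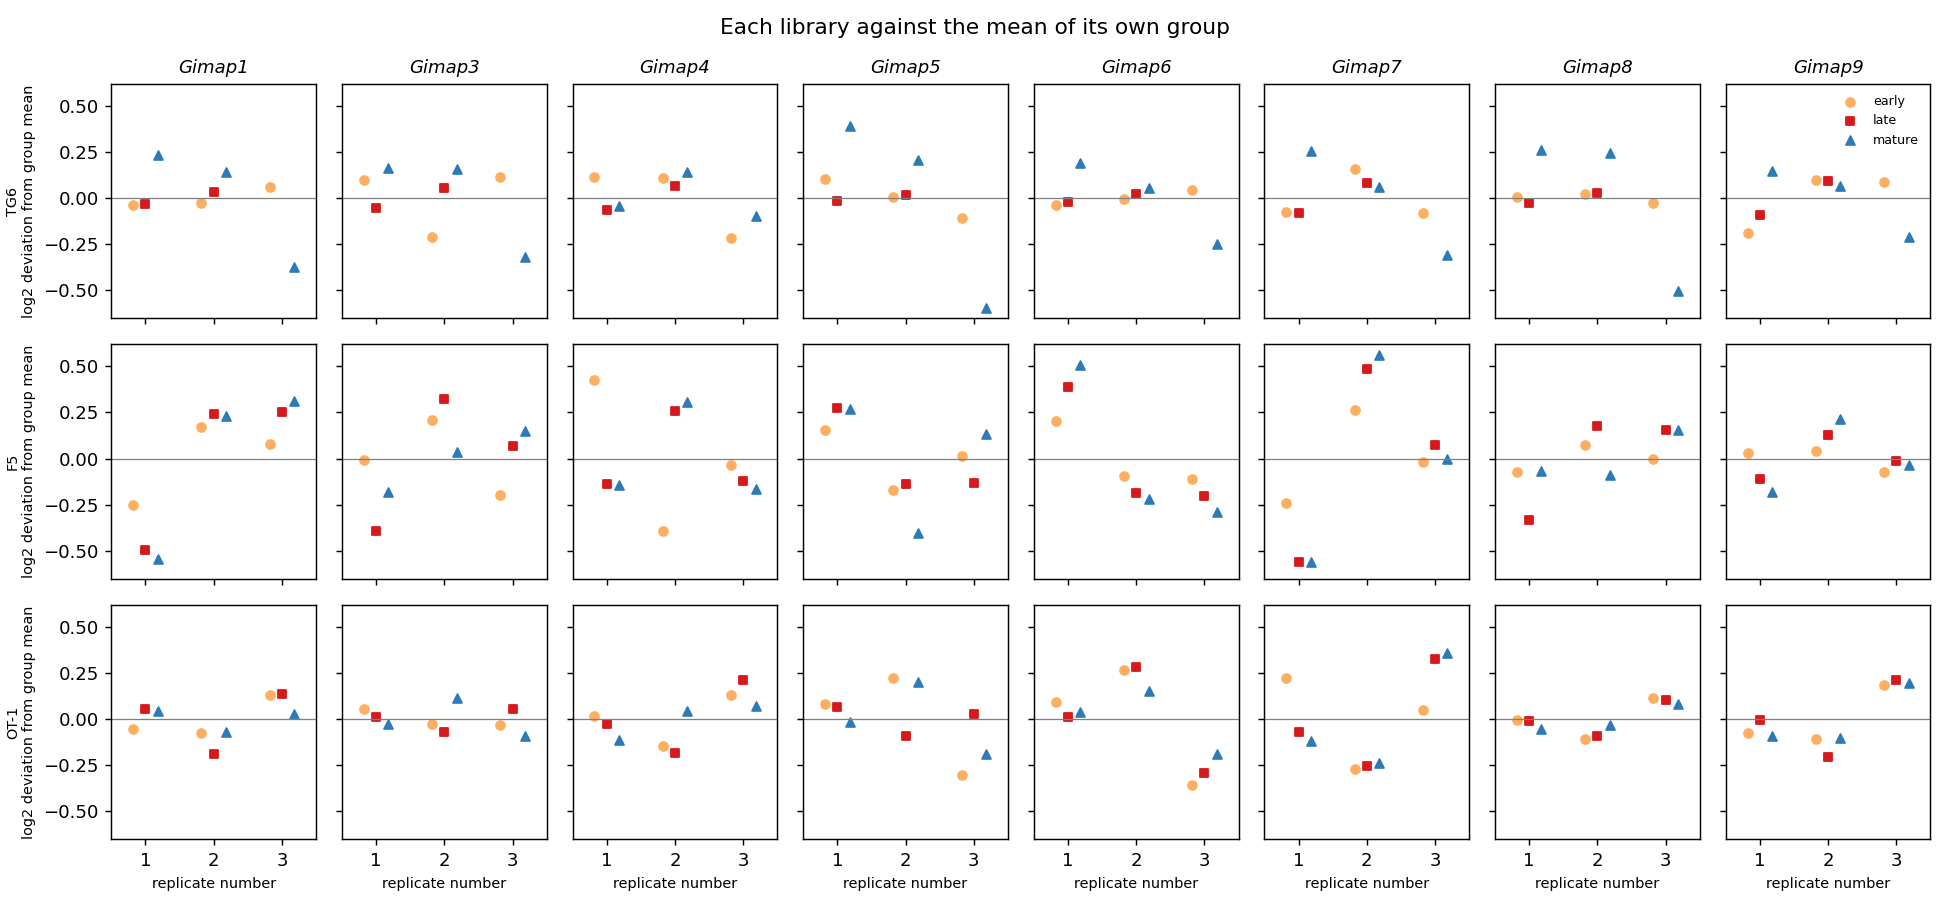
Each point is 1 library's log2 deviation from the mean of its own group, for the 8 Gimap genes (columns) in TG6, F5 and OT-1 (rows), by replicate number and with circles for early, squares for late and triangles for mature. In F5, replicate 1 lies above the group mean in Gimap6 and below it in Gimap1 and Gimap7 at all 3 stages, and TG6 mature replicate 3 lies below it in every panel.

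With F5 replicate 1 left out at every stage, an alternative chosen after seeing the data, 4 calls were lost. These were Gimap3 from late to mature in F5 (0.37; limma, adjusted p = 0.116), Gimap9 from early to mature in F5 (-0.41; limma, adjusted p = 0.106), Gimap4 between F5 and TG6 at the early stage (0.53; limma, adjusted p = 0.0698) and Gimap9 between OT-1 and F5 at the mature stage (0.35; limma, adjusted p = 0.0945). In the same fit Gimap1 was lower in OT-1 than in F5 at the early stage (-0.63; limma, adjusted p = 0.00379) and at the mature stage (-0.47; limma, adjusted p = 0.0211), Gimap7 was lower in OT-1 at the late stage (-0.78; limma, adjusted p = 0.0202) and Gimap3 lower in OT-1 at the mature stage (-0.48; limma, adjusted p = 0.0271).

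Over the 9 group means of log2(value + 1), some members had a like pattern. Gimap3 and Gimap4 had a Pearson r of 0.890, Gimap3 and Gimap5 of 0.884 and Gimap4 and Gimap5 of 0.875. Gimap8 was most like Gimap6 (r = 0.850) and Gimap7 (r = 0.842). Gimap1 ran against Gimap6 (r = -0.686) and Gimap4 (r = -0.592). Among 9898 genes with a mean of at least 100 normalized counts, the ones most like the mean of the standardized members were Rabgef1 (r = 0.989), an exchange factor for Rab5, Arf3 (r = 0.978), a small GTPase of the Golgi, Smarca2 (r = 0.978), a chromatin remodelling ATPase, Lta (r = 0.973), which encodes lymphotoxin alpha, Uso1 (r = 0.972), a vesicle tethering factor, and Inpp4a (r = 0.968), a phosphoinositide phosphatase. The gene most like each member was Relt for Gimap3 (r = 0.988), Tmem173, which encodes STING, for Gimap4 (r = 0.985), Polr3d for Gimap5 (r = 0.990), Erbb2ip for Gimap6 (r = 0.977), Rabgef1 for Gimap7 (r = 0.982), Dlg4 for Gimap8 (r = 0.996), Tor1aip1 for Gimap9 (r = 0.922) and Fgfr1op2 for Gimap1 (r = 0.989). These are descriptions over 9 means that share libraries, without a test.

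Genes of the same biology were read from lists for comparison, beside the 25.4% of all genes called from early to late in TG6, 26.7% in F5 and 26.7% in OT-1. Of 20 genes of thymocyte maturation and egress, 15 rose and 2 fell from early to late in TG6, 13 rose and 1 fell in F5, and 14 rose and 2 fell in OT-1. In TG6, Il7r, the interleukin 7 receptor, rose by 5.87 ± 0.49 (log2, SE), the chemokine receptor Ccr7, used in the sort, by 5.81 ± 0.39, Slfn1 by 4.58 ± 0.35 and S1pr1, the receptor for exit from the thymus, by 3.64 ± 0.48. At the early stage OT-1 exceeded TG6 in 14 of the 20 and was below it in 2 (27.8% of all genes called, 15.4% higher), among them S1pr1 (4.38 ± 0.43), Dapl1 (3.5 ± 0.41), Il7r (3.48 ± 0.44) and Ly6c2 (2.89 ± 0.42). Against F5, 15 of the 20 were higher in OT-1 and none lower (12.7% of all genes called, 7.81% higher). Ccr7 itself was 2.43 ± 0.35 higher in early OT-1 than in early TG6, and the other 4 genes of the sort were all lower, Cd4 (-1.46 ± 0.50), Cxcr4 (-1.41 ± 0.43), Cd8b1 (-1.37 ± 0.15) and Cd8a (-1.10 ± 0.12), so that the early OT-1 and TG6 cells differed in genes of the sorting markers alongside Gimap3, Gimap4 and Gimap5. Of the 5 sorting markers, 1 was higher and 2 were lower in early OT-1 than in early F5, and none was called between early F5 and TG6, where Gimap3 and Gimap4 were. The part of this in the Gimap differences was not tested.

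Of 13 proposed partners of GIMAP proteins, 1 rose and 3 fell from early to late in TG6, 2 rose and 3 fell in F5, and 1 rose and 4 fell in OT-1, beside 25.4%, 26.7% and 26.7% of all genes called. Bcl2, which protects from apoptosis, rose in every line (2.27 ± 0.20 in TG6, 0.53 ± 0.18 in F5 and 0.77 ± 0.18 in OT-1; log2, SE), while Bcl2l1, which encodes the related Bcl-xL, fell in each (-2.03 ± 0.22, -1.68 ± 0.20 and -1.64 ± 0.20). Bak1, a promoter of apoptosis, also fell in each line (-0.52 ± 0.19, -0.88 ± 0.17 and -0.57 ± 0.17). At the early stage Bcl2 was 1.21 ± 0.18 higher in OT-1 than in TG6 and Bcl2l1 lower (-1.65 ± 0.20).

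Septins, GTPases related to the family, were read in the same way. Of 11 septins tested, 1 rose and 4 fell from early to late in TG6, 2 rose and 3 fell in F5, and 1 rose and 6 fell in OT-1. Of all genes tested, 25.4%, 26.7% and 26.7% were called at this step in these lines (13.3%, 14% and 14% lower). Sept8 fell in each line (-1.0 ± 0.27, -1.19 ± 0.24 and -0.85 ± 0.24; log2, SE). Of 17 interferon inducible GTPases tested, 12 rose and 1 fell from early to late in TG6, 12 rose and none fell in OT-1, and 1 rose and 1 fell in F5. Of all genes tested, 12.1%, 12.7% and 12.7% rose at this step in TG6, OT-1 and F5. In the test of the step between lines, 1 of the 17 was higher and 7 were lower in F5 than in TG6, 2 were higher and none lower in OT-1 than in F5, and 1 was higher and 1 lower in OT-1 than in TG6, beside 2.08%, 1.68% and 2.04% of all genes called in these tests. Tgtp2 rose by 3.32 ± 0.43 in TG6 and 1.48 ± 0.38 in OT-1, and Gbp9 rose by 0.90 ± 0.18 in F5. At the late stage 14 of the 17 were lower in F5 than in TG6, where 3.23% of all genes were called lower, and their median log2 difference was -2.04, where the 8 Gimap genes had a median of -0.24 and all genes 0.02.

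Markers of other cell types were summed per library. The 5 B cell markers summed to 108 to 319 normalized counts per library, with Pax5 at 0 in 19 of 26 libraries, the 6 myeloid markers to 84.1 to 348, and the 3 NK cell markers to at most 15.3. Of the 4 endothelial markers, Cdh5, Kdr and Tek had at most 22.6, 2.96 and 1.67 in any library, while Pecam1, which T cells also express, had 1799 to 3627. The 2 markers of CD4 single-positive thymocytes (Zbtb7b and Cd40lg) summed to 116 to 315 in early OT-1, against 5.64 to 22.1 in early TG6 and 5.38 to 20.3 in early F5, and thus were higher in the same early libraries as Gimap4. They reached 275 to 698 in late OT-1, against 75.9 to 180.0 in late TG6 and 60.6 to 107 in late F5. The 5 dendritic cell markers summed to 70.4 to 146 in early OT-1, against 22.9 to 60.9 in early TG6 and 36.3 to 51.3 in early F5. In TG6 the dendritic sums were 65.8 to 87.0 late and 112 to 225 mature. They were 38.3 to 55.0 and 78.2 to 81.4 in late and mature OT-1, and 36.0 to 44.2 and 43.5 to 99.5 in late and mature F5. The 5 erythroid markers ran from 33.9 to 1280.5 over all libraries, with 336 to 1280.5 in early OT-1, 193 to 355 in early TG6 and 33.9 to 682 in early F5. The 2 markers of regulatory T cells summed to 1288 to 5391, nearly all of it Ikzf2, while Foxp3 had at most 46.9, and their early sums were 4447 to 5391 in OT-1, 2494 to 3307 in TG6 and 4820.5 to 5005 in F5. The 5 thymic epithelial markers had at most 76.0. The part of any of these in the Gimap values was not tested.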

How the data were processed

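RNA from sorted thymocytes was sequenced on an Illumina HiSeq. Per the labels and the study's methods, the authors used Trimmomatic 0.32 for trimming, Bowtie2 2.3.2 for alignment (mm10) and RSEM 1.2.31 for quantification, and deposited a signal table of DESeq2 median-of-ratio normalized counts for all 26 libraries. The annotation and strand setting are not given in the sources used here. Median-of-ratio scaling assumes that most genes do not differ, and the values are not per length. Only 42.4 to 44.3% of values came out whole (tolerance 0.01), so reads were not recovered and no count test was run.

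Genes with at least 10 normalized counts in at least 2 libraries (16372) were tested on log2(value + 1) with limma 3.58.1 in R 4.3.3, with 1 mean for each of 9 groups, a mean-variance trend and Benjamini-Hochberg adjustment within each comparison, and called at an adjusted p under 0.05. Fold changes are on that scale, which understates those of low genes. The 24 comparisons were 9 between stages, 9 between lines and 6 of the steps between lines. The scripts were tested on simulated data. The p-values measure the spread between these libraries and take stages as independent, although all libraries of a line came from 3 mice. The replicate number was checked as a pairing of stages within each line, by correlating deviations from group means over genes. All 9 F5 pairs had r over 0.1 (0.106 to 0.340), but only 2 of 7 in TG6 and 5 of 9 in OT-1. Pairs with a late TG6 library had r of 0.0230 to 0.0507. Alternatives changed the pseudocount, filter, scaling, trend, libraries and replicate block. The block was fitted within each line for stages and steps, and as an effect of the number shared by all lines for comparisons between lines. Levels per kb use GENCODE vM21 exons. Genes named are the 8 members, genes overlapping them, the genes most like them and examples of listed genes. The members and all gene lists were chosen with earlier results of these data known.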

Additional observations from a re-analysis of the deposited data

Results flagged for a closer look

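The change from early to late differed between lines, by a test of the difference itself, for 3 members. For Gimap4 the log2 difference between steps was -4.01 for OT-1 minus TG6, -2.38 for OT-1 minus F5 and -1.63 for F5 minus TG6. For Gimap3 it was -1.90 for OT-1 minus TG6 and -1.61 for F5 minus TG6. For Gimap9 it was -0.85 for OT-1 minus TG6.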

How the results depend on the processing

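Of 67 calls of a member in a comparison, 47 held under every alternative other than summing Gimap3 and Gimap5, 20 were lost under at least 1, and none reversed. Of 125 results not called, 29 were called under at least 1 alternative other than that sum. Beside those given with the results, these were Gimap4 from late to mature in TG6 and Gimap3 in mature OT-1 minus F5 with total scaling (limma, adjusted p = 0.0416 and 0.0239), Gimap8 from early to mature in OT-1 with only the groups compared (limma, adjusted p = 0.0306), and, from early to late in OT-1, Gimap6 without late replicate 3 or early replicate 2 (limma, adjusted p = 0.0349 and 0.0435) and Gimap7 with 3 other settings (limma, adjusted p = 0.0276 to 0.0444). Gimap9 from early to mature in OT-1 was called under 4 settings besides the block (limma, adjusted p = 0.0269 to 0.0465), and Gimap7 in late OT-1 minus F5 without F5 late replicate 1 (limma, adjusted p = 0.0399) and in the step from early to late of OT-1 minus TG6 with only the groups compared (limma, adjusted p = 0.0279). The number of members called was 2 for mature OT-1 minus TG6 and became 1 with no filter and 0 without the trend or with only the groups compared. For late OT-1 minus TG6 it was 1, and became 2 with the replicate block, with quantile or total scaling or with the stricter filter (mean 50 or more), and 3 with only the groups compared. With only the groups compared it also went from 6 to 3 for F5 mature minus late, from 3 to 6 for early OT-1 minus TG6, from 2 to 1 for early F5 minus TG6, and from 1 to 0 for F5 minus TG6 at the late and mature stages. Early F5 minus TG6 had 1 without F5 replicate 1 at every stage. For the step from late to mature, 0 became 1 (OT-1 minus TG6) and 2 (OT-1 minus F5) with a mean of at least 50, and 1 (OT-1 minus F5) with total scaling. The cause was not tested.

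Leaving out 1 library gave 0 to 3 for mature OT-1 minus TG6, 0 to 1 for late OT-1 minus TG6 and late F5 minus TG6, 1 to 2 for early F5 minus TG6, and, for the step from late to mature, 0 to 1 for OT-1 minus TG6 and 0 to 2 for OT-1 minus F5.

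With the replicate block no call was lost. The count became 5 for early OT-1 minus TG6, 2 for the step from early to late of OT-1 minus F5, and 2 for the step from late to mature of OT-1 against either line. The calls it added are given with the results. Stages of a line share mice, but the labels do not state that a number is 1 mouse, and in TG6 and OT-1 not every pair of same-numbered libraries deviated together. Total scaling ended the calls of Gimap3 in early OT-1 minus F5 (0.46; limma, adjusted p = 0.0669) and Gimap9 in mature OT-1 minus F5 (0.30; limma, adjusted p = 0.128), and moved the median of all genes by -0.11 in early OT-1 minus TG6 and -0.13 in late OT-1 minus TG6. Within a kind of comparison, those that use the 2 late TG6 libraries have wider standard errors than those that do not. Without recovered reads, depth gives no interval for low values.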

Other observations

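Genes in and around the cluster were read as well. Of 12 tested genes within 200 kb, Gimap1os and Gm28053 included, 4 rose and none fell from early to late in TG6, 3 rose and 1 fell in F5, and none was called in OT-1, beside 25.4%, 26.7% and 26.7% of all genes called in those lines. At the early stage Sspo (2.66, log2) and AI854703 (1.72, log2) were above TG6 in OT-1, where 27.8% of all genes were called (15.4% higher). Both are low genes, with means of 7.16 and 58.3 normalized counts over all libraries. Tmem176b and Tmem176a were higher in early F5 than in early TG6 (1.28 and 1.58, log2) and lower in early OT-1 than in early F5 (-1.30 and -1.43, log2). Of all genes, 3.12% were called higher in the first of these comparisons and 4.88% lower in the second. Gimap1os fell from late to mature in every line (-1.27 in TG6, -1.08 in F5 and -0.81 in OT-1, log2). Gm28053 was called in none of the 24 comparisons.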
